A study of Homo sapiens with 24 samples.

Results

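The Notch genes described here are 10 genes taken by name from both count tables, NOTCH1, NOTCH2, NOTCH3, JAG1, JAG2, DLL1, HES1, HES4, HEY1 and NRARP, out of 28277 genes in each table. RNA sequencing had been done on PEO1 and PEO4, established lines of high-grade serous ovarian cancer that share 1 patient as their source, PEO4 being the drug-resistant one. The series holds 24 libraries in 8 conditions with 3 replicates each, which the design text calls biological replicates. In the first table (the A pair), BRCA2-deficient PEO1 and PEO4, in which BRCA2 is restored, were both untreated and both carry the genotype label WT. In the second table (the B pair), PEO1 BRCA+, a PEO1 line with a spontaneous BRCA2 reversion whose genotype the labels give as BRCA2+, and PEO4, labelled WT, were each left untreated or exposed to 5 µM pyridostatin (PDS), a small molecule that binds and stabilises G-quadruplex structures in DNA, for 2 h or 6 h. The cells of the A pair additionally had sodium pyruvate in their medium.

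Notch signalling runs between touching cells. A ligand of the Jagged (JAG) or Delta-like (DLL) family on one cell binds a NOTCH receptor on its neighbour, the receptor is cut by an ADAM protease and then by the gamma-secretase complex, and the freed intracellular part enters the nucleus, where it joins the DNA-binding protein RBPJ and the Mastermind-like co-activators. The best known direct targets are the HES and HEY genes, which code for transcriptional repressors, and NRARP, which codes for a small protein that limits the pathway in turn.

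The promoter sequences of genes whose levels moved are shown first, since RBPJ can bind and G-quadruplexes can form near a start site. RefSeq promoter sequences (GRCh38.p14) were matched for 8 of the 9 genes looked up, and HEY1 was not looked up. The 250 bases before the start site were searched on both strands for GTGGGAA, the letters RBPJ is known to bind, which 5.43% of 35116 start sites of the table held. HES1 and HES4 held it once each, beginning 85 and 77 bases before the start site, and the other 6 genes did not hold it. The capitals mark GTGGGAA in HES1 (chr3:194135898-194136147, plus strand) and HES4 (chr1:1000098-1000347, minus strand). NRARP (chr9:137302272-137302521, minus strand), also a Notch target, has none of these letters in this window and is shown in lower case throughout.
HES1: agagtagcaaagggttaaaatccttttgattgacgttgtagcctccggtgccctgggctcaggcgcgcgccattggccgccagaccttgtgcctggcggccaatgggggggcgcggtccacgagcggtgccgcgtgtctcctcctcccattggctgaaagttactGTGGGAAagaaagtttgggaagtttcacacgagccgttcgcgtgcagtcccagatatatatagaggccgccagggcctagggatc
HES4: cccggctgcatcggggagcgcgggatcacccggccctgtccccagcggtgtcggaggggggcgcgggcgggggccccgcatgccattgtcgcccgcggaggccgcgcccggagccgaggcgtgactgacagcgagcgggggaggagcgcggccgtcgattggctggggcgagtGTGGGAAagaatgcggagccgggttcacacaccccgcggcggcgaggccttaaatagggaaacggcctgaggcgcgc
NRARP: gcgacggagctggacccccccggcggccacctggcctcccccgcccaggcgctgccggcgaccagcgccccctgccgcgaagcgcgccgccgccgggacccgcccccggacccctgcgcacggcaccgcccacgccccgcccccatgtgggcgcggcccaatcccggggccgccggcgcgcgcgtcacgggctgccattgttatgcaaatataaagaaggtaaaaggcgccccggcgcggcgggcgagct

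A G-quadruplex can form where 4 runs of at least 3 G lie close together, and the same windows were searched for such runs parted by 1 to 7 bases, which 23.5% of the start sites held on one strand or the other. JAG1, JAG2, NOTCH1 and NOTCH3 each held 2 separate stretches of this kind, while NOTCH2, HES1, HES4 and NRARP held none. JAG1, NOTCH1 and NOTCH3 are shown because their levels moved after PDS, with the stretches in capitals. The pattern and a change after PDS did not always go together. JAG2 held the pattern and did not pass the thresholds given below, while HES1 and NRARP held none and passed them. The relation of the pattern to the changes was not tested. Runs of C in capitals are runs of G on the opposite strand. Their windows are chr20:10674000-10674249, chr9:136546049-136546298 and chr19:15200996-15201245, all on the minus strand. A match describes the letters of the window and does not show that a structure forms there in these cells.
JAG1: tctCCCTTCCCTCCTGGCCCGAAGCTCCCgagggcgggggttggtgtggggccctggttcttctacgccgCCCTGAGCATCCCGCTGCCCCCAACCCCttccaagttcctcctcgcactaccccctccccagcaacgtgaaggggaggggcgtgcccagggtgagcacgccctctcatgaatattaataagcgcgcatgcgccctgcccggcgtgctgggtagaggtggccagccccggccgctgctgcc
NOTCH1: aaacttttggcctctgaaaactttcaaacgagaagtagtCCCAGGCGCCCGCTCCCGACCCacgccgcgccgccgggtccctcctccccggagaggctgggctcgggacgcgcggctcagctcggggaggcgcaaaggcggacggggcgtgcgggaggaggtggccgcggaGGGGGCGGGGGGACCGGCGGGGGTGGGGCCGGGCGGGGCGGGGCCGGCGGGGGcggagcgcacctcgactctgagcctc
NOTCH3: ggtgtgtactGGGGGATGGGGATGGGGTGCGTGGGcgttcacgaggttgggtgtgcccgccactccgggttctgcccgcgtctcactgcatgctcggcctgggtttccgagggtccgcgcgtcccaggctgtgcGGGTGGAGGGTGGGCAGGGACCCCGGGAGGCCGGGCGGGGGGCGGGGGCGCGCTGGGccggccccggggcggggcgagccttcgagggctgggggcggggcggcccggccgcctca

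The N box CACNAG (N being any base), which HES proteins are known to bind, lay in the windows of HES1 in 3 places and of NOTCH3 in 1, and in 32% of all windows. Outside the promoters, DLL1 (chromosome 6, 170282206 to 170291078) shares an end with FAM120B, NOTCH1, NOTCH3, JAG1 and JAG2 each hold a microRNA gene inside their borders, and HES1, HES4, HEY1, NRARP and NOTCH2 overlap no other RefSeq gene.

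Total counts per library ran from 32528913 to 63882077 in the A pair, from 18699929 to 22375644 in the 6 untreated libraries of the B pair and from 33260167 to 43713947 in the 12 PDS libraries. Every PDS library was thus deeper than every untreated one of the B pair, so that depth and treatment cannot be told apart, although levels are given relative to depth. PAX8, WT1, EPCAM and KRT8, which mark ovarian serous carcinoma or epithelium, were expressed in all 24 libraries (PAX8 at 104.7 CPM, counts per 1e6 counts of the library, or more). So were KRT7, KRT18, CDH1, MSLN and MUC16, whereas FOLR1, also a carcinoma marker, had at most 24 counts in any PEO1 library. In PEO4 of the B pair mean FOLR1 fell from 33.7 CPM untreated to 1.16 CPM at 6 h of PDS. MUC16 fell there from 545 to 51.6 CPM and in PEO1 BRCA+ from 413 to 68.7 CPM, while EPCAM rose in both lines. The part of these changes in the results was not tested. The leukocyte marker CD3E had no count and PTPRC at most 2. CD14, the leukocyte marker that made up nearly all of that list's summed level, held 34 to 294 counts per library. The summed leukocyte markers were at 5.44 to 5.71 CPM in PEO1 and 0.755 to 1.47 CPM in PEO4 of the A pair. In the B pair they were at 3.82 to 5.66 CPM over the PEO1 BRCA+ libraries, and in PEO4 at 1.57 to 2.61 CPM untreated, 5.75 to 6.27 CPM at 2 h and 1.81 to 2.25 CPM at 6 h. They thus moved with line and, in PEO4, with PDS, and their part in the results was not tested. BRCA2 itself read 7.86 to 8.80 CPM in untreated PEO1 BRCA+ and 7.99 to 8.57 CPM in BRCA2-deficient PEO1, so the RNA level does not check the reversion. Of the untreated PEO4 libraries of the B pair, replicate 2 stood apart from the other two on the second principal component, and replicate 3 read differently from them for several Notch genes, which is noted where it bears on a value. In bulk RNA, fewer cells expressing a gene and less RNA of it per cell cannot be told apart.

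A call below means an adjusted p (edgeR quasi-likelihood test, Benjamini-Hochberg) under 0.05 with a log2 fold change beyond 1 in size. The low-count filter kept 8 of the 10 genes in the A pair and 9 in the B pair. DLL1 was kept in neither table and HEY1 was not kept in the A pair. Within a line, the comparisons of 2 h and of 6 h of PDS with untreated cells share the same 3 untreated libraries.

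**Figure D1:**
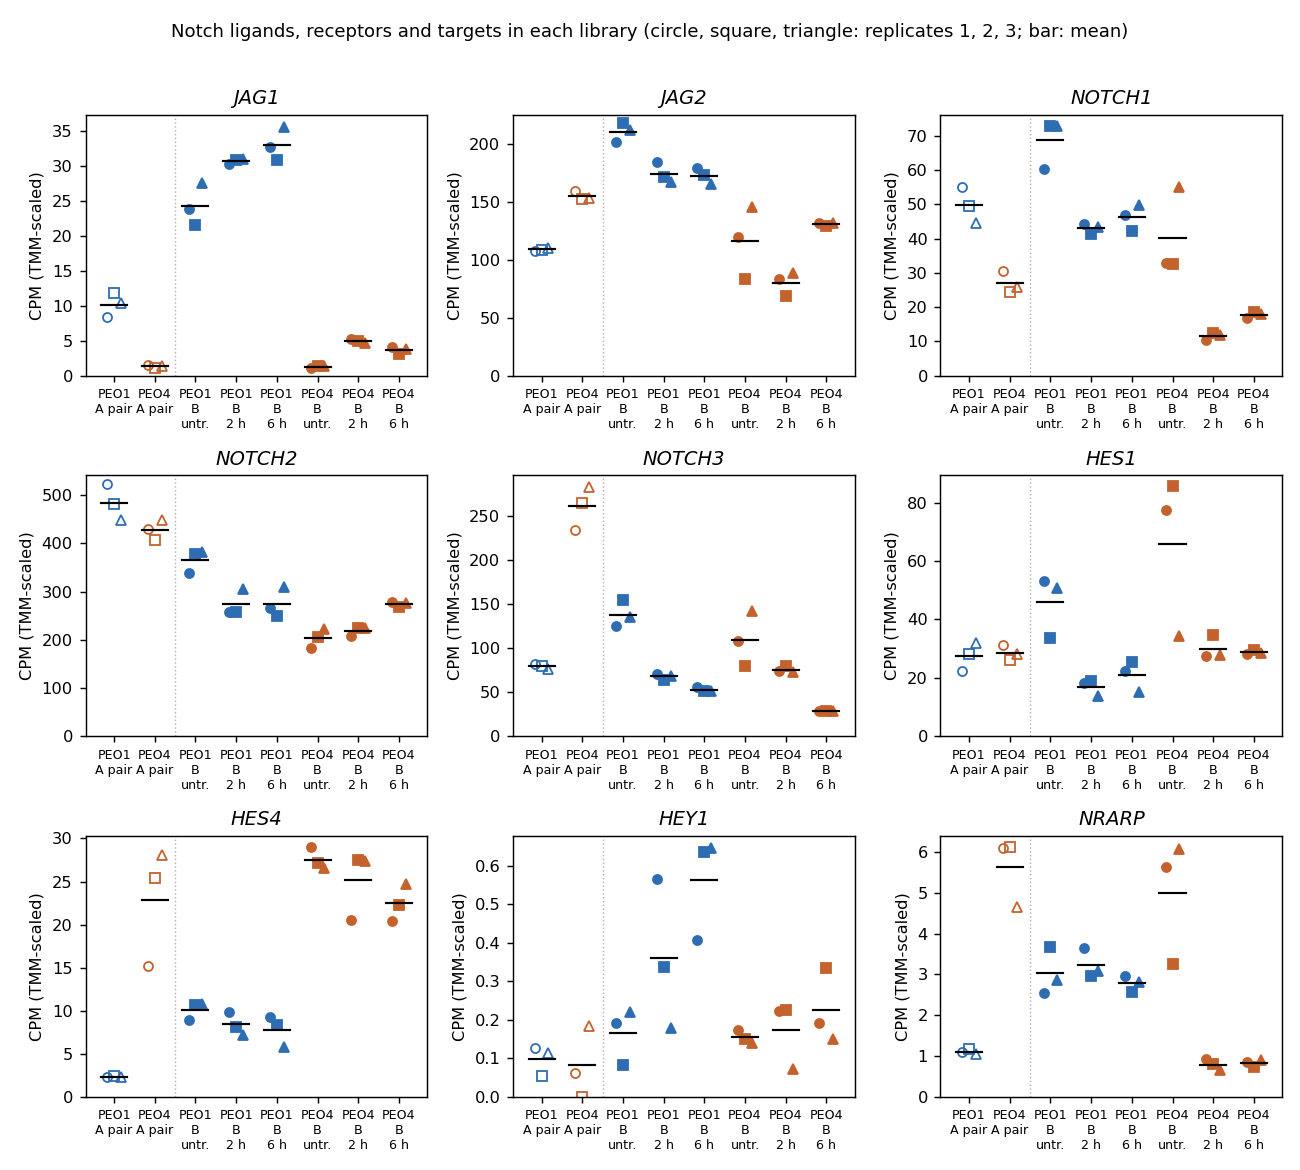
CPM (scaled by TMM factors, linear axis from 0) of 9 Notch genes in each of the 24 libraries. Blue is PEO1 and orange PEO4; open symbols are the A pair and filled symbols the B pair; circles, squares and triangles are replicates 1, 2 and 3 and the bar is the group mean. NRARP in PEO4 drops from 3.26 to 6.08 CPM untreated to 0.648 to 0.917 CPM after 2 h of PDS, and HES1 in untreated PEO4 spreads from 34.4 to 85.8 CPM.

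Per kilobase of the canonical transcript, the receptor NOTCH2 and the ligand JAG2 were among the 4 most abundant of the 10 Notch genes in each of the 8 groups, and the ligand JAG1 and the target NRARP were lower than both in each. NOTCH2 led in both lines of the A pair, at 42.4 ± 3.35 CPM per kb in PEO1 and 37.5 ± 1.78 in PEO4 (SD, n = 3). In untreated PEO1 BRCA+, JAG2 came first at 36.4 ± 1.38 CPM per kb, above NOTCH2 at 32.04 ± 2.03, and HES1 at 29.2 ± 6.73 overlapped NOTCH2. In untreated PEO4 of the B pair the mean was highest for HES1, at 41.9 ± 17.5 CPM per kb, which overlapped HES4 at 31.1 ± 1.42. JAG1 stood at 4.09 ± 0.518 CPM per kb in untreated PEO1 BRCA+ and at 0.209 ± 0.0303 in PEO4. After PDS, HES4 led in PEO4 at both times (28.4 ± 4.55 and 25.4 ± 2.47 CPM per kb), overlapping NOTCH2 at 6 h (23.0411 to 27.97 against 23.4 to 24.5 CPM per kb), and JAG2 led in PEO1 BRCA+ (30.2 ± 1.54 and 29.9 ± 1.21). The transcript length of one isoform was used for each gene, so these orders hold only as far as that isoform stands for the gene.

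DLL1, which codes for a Delta-like ligand, was listed at 0 in all 24 libraries. By counting error alone, a single count of 0 leaves room for an expected count of up to about 3 in that library at a 95% level. FAM120B, which overlaps it, had at most 1 count per library, whereas PSMB1, the next listed gene along the chromosome, had 1318 to 5865. All 31-base words of the DLL1 and FAM120B transcripts that lie in hg38 also occur on an alternate contig of hg38, as do 99.5% of those of the receptor gene NOTCH4. For NOTCH1, NOTCH3, JAG2, HES1, HES4, HEY1 and NRARP no word had a second copy, and for JAG1 0.0961% did. The part of these copies in the zeros was not tested. In NOTCH2 6.53% of the words were repeated on the main chromosomes, where its partial copies of the NOTCH2NL family lie, so its counts carry some uncertainty.

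The comparison of PEO4 with PEO1 without PDS was available in both pairs, against PEO1 that lacks or has BRCA2. Of the genes tested, 4 of 8 were called in the A pair, where 25.8% of all tested genes were called, and 2 of 9 in the B pair, where the share was 24.8%. JAG1 was lower and HES4 higher in PEO4 in both pairs, and NOTCH3 and NRARP were called higher in the A pair only; the difference between the pairs was not tested, since the tables were made separately. The median log2 fold change of the tested Notch genes was 0.28 in the A pair and -0.33 in the B pair, with -0.01 and 0.00 over all tested genes.

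The ligand JAG1 was lower in PEO4 of both pairs. In the A pair it read 8.37, 11.8 and 10.4 CPM in the PEO1 libraries and 1.51, 1.11 and 1.35 CPM in the PEO4 libraries. B pair libraries read 23.8, 21.5 and 27.6 CPM in untreated PEO1 BRCA+ and 1.04, 1.31 and 1.38 CPM in untreated PEO4. The groups did not overlap in either pair. JAG1 was 7.59-fold lower in PEO4 of the A pair (log2 fold change -2.92 ± 0.20 SE, adjusted p = 6.98e-08) and 19.6-fold lower in PEO4 of the B pair (-4.29 ± 0.14, adjusted p = 1.21e-18). The untreated PEO4 value of the B pair rests on 24, 26 and 30 counts.

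JAG2, the second Jagged ligand, had fold changes of opposite sign in the pairs. It read 108, 109 and 110.5 CPM in PEO1 and 159, 152 and 154 CPM in PEO4 of the A pair, a log2 fold change of 0.51 ± 0.07 with an adjusted p of 2.29e-05. The B pair libraries read 202, 218 and 212 CPM in untreated PEO1 BRCA+ and 119.9, 83.4 and 145 CPM in untreated PEO4, a log2 fold change of -0.86 ± 0.14 with an adjusted p of 9.25e-05. The groups did not overlap in either pair, and neither value reached the fold threshold. Without replicate 3 of untreated PEO4, the B pair value was -1.05 and passed it.

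Among the receptors, NOTCH3 differed most between the pairs. Its levels were 82.1, 79.3 and 76.0 CPM in PEO1 and 235, 265 and 283 CPM in PEO4 of the A pair, where it was 3.30-fold higher in PEO4 (log2 1.72 ± 0.08, adjusted p = 3.83e-09). B pair levels were 125, 154 and 135 CPM in untreated PEO1 BRCA+ and 108, 79.3 and 142 CPM in untreated PEO4, and the groups overlapped (log2 -0.33 ± 0.14, adjusted p = 0.0562). NOTCH1 was at 55.2, 49.7 and 44.6 CPM in PEO1 and 30.5, 24.4 and 25.96 CPM in PEO4 of the A pair. For the B pair the levels were 60.4, 72.8 and 73.1 CPM in untreated PEO1 BRCA+ and 32.8, 32.7 and 55.2 CPM in untreated PEO4. The log2 fold changes of NOTCH1, -0.88 ± 0.11 (adjusted p = 1.44e-05) and -0.77 ± 0.16 (adjusted p = 0.000547), had the same sign in both pairs and stayed within the fold threshold, with no overlap of the groups. Without replicate 3 of untreated PEO4, the highest of its group, the B pair value of NOTCH1 was -1.07 and passed. NOTCH2 gave -0.18 ± 0.08 (adjusted p = 0.0805) in the A pair and -0.85 ± 0.08 (adjusted p = 1.97e-09) in the B pair, from 339, 377 and 381 CPM in untreated PEO1 BRCA+ and 184, 205 and 222 CPM in untreated PEO4.

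The target HES4, a HES family repressor gene, was higher in PEO4 in both pairs. It read 2.26, 2.46 and 2.29 CPM in PEO1 and 15.2, 25.4 and 28.1 CPM in PEO4 of the A pair, 9.76-fold higher (log2 3.29 ± 0.22, adjusted p = 2.60e-07). In the B pair it read 8.96, 10.6 and 10.8 CPM in untreated PEO1 BRCA+ and 29.0, 27.2 and 26.5 CPM in untreated PEO4, 2.72-fold higher (log2 1.44 ± 0.16, adjusted p = 1.47e-07). The PEO4 levels of the tables lay in a similar range, and the PEO1 levels did not; the tables were not tested against each other.

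NRARP, the feedback inhibitor, read 1.09, 1.17 and 1.05 CPM in PEO1 and 6.10, 6.13 and 4.65 CPM in PEO4 of the A pair, 5.11-fold higher (log2 2.35 ± 0.21, adjusted p = 7.69e-07). In the B pair it read 2.54, 3.68 and 2.85 CPM in untreated PEO1 BRCA+ and 5.63, 3.26 and 6.08 CPM in untreated PEO4. Those groups overlapped, through replicate 2 on either side, and the log2 fold change of 0.72 ± 0.20 (adjusted p = 0.00213) was within the fold threshold.

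HES1, the most studied Notch target and a repressor of its own gene, did not pass in either pair. It read 22.4, 28.1 and 31.8 CPM in PEO1 and 31.2, 26.2 and 28.1 CPM in PEO4 of the A pair (log2 0.06 ± 0.13, adjusted p = 0.704). In the B pair it read 53.2, 33.8 and 50.8 CPM in untreated PEO1 BRCA+ and 77.7, 85.8 and 34.4 CPM in untreated PEO4 (log2 0.52 ± 0.30, adjusted p = 0.136). The groups overlapped in both pairs, and replicate 3 of untreated PEO4, lowest in HES1, was the highest of its group in NOTCH1, NOTCH2, NOTCH3, JAG1, JAG2 and NRARP. HEY1 had at most 6 counts in any A pair or untreated B pair library and gives no usable comparison between the lines.

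**Figure D2:**
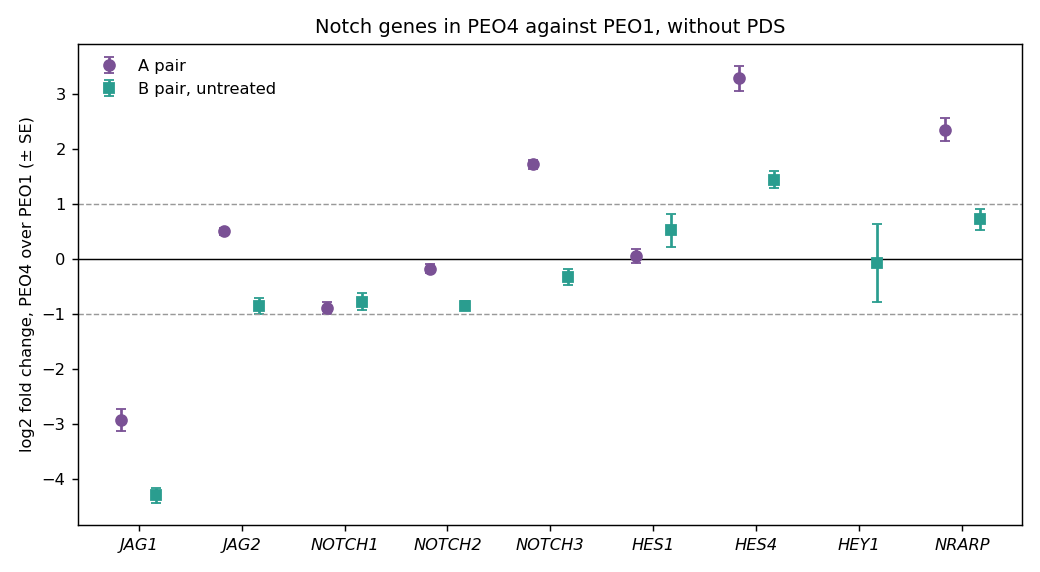
Log2 fold change of PEO4 over PEO1 (points, with SE bars) for each Notch gene tested, in the A pair (circles) and in the untreated B pair (squares); dashed lines mark a log2 fold change of 1 in either direction. JAG1 lies at -2.92 and -4.29 and HES4 at 3.29 and 1.44, while NOTCH3 and JAG2 lie on opposite sides of 0 in the pairs.

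PDS was given to ask how a G-quadruplex ligand shifts transcription in each line. In PEO1 BRCA+, 2 of 9 Notch genes were called after 2 h, against 7.57% of all tested genes, and 3 of 9 after 6 h, against 8.13%. NOTCH3 and HES1 fell at both times, and HEY1 rose at 6 h from very low counts. In PEO4, 4 of 9 were called after 2 h, against 17.4% of all genes, and 5 of 9 after 6 h, against 22.6%. There NOTCH1, HES1 and NRARP fell and JAG1 rose at both times, and NOTCH3 fell at 6 h. The median log2 fold change of the Notch genes was -0.27 and -0.38 in PEO1 BRCA+ at 2 h and 6 h and -0.54 and -0.30 in PEO4, with -0.03, -0.03, 0.00 and -0.03 over all genes tested. Where levels were scaled by library totals instead, the median over all genes moved by -0.15 in PEO1 BRCA+ at both times and by -0.13 and -0.16 in PEO4, and every call of a Notch gene was kept.

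HES1 fell in both lines. In PEO1 BRCA+ it went from 53.2, 33.8 and 50.8 CPM to 18.3, 18.8 and 13.8 CPM at 2 h and 22.5, 25.5 and 15.03 CPM at 6 h, with no overlap. It was 2.70-fold lower at 2 h (log2 -1.43 ± 0.31, adjusted p = 0.00188) and 2.18-fold lower at 6 h (-1.13 ± 0.31, adjusted p = 0.00787). In PEO4 it went from 77.7, 85.8 and 34.4 CPM to 27.4, 34.8 and 28.0 CPM at 2 h and to 28.3, 29.7 and 28.6 CPM at 6 h. The untreated and 2 h libraries of PEO4 overlapped, through untreated replicate 3 and the replicate 2 of 2 h, and the untreated and 6 h libraries did not. The log2 fold changes in PEO4 were -1.13 ± 0.30 at 2 h (adjusted p = 0.00463) and -1.19 ± 0.30 at 6 h (adjusted p = 0.0031). Several of these calls sit at the fold threshold. In PEO4 the value became -0.996 without untreated replicate 1 and -0.90 without untreated replicate 2 at 2 h, and -0.95 without untreated replicate 2 at 6 h. In PEO1 BRCA+ at 6 h it became -0.998 without untreated replicate 1 and -0.92 without the 6 h replicate 3, and the adjusted p stayed under 0.05 in all of these. The HES1 response of PEO4 minus that of PEO1 BRCA+ was 0.30 ± 0.43 at 2 h (adjusted p = 0.628) and -0.07 ± 0.43 at 6 h (adjusted p = 0.921).

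NRARP fell in PEO4 and was not called in PEO1 BRCA+, and the difference itself passed the test. In PEO4 its levels of 5.63, 3.26 and 6.08 CPM became 0.917, 0.793 and 0.648 CPM at 2 h and 0.859, 0.732 and 0.898 CPM at 6 h, below all untreated libraries. It was 6.39-fold lower at 2 h (log2 -2.68 ± 0.22, adjusted p = 1.40e-10) and 6.01-fold lower at 6 h (-2.59 ± 0.22, adjusted p = 1.65e-10). The treated PEO4 libraries held 24 to 36 counts each. In PEO1 BRCA+, 2.54, 3.68 and 2.85 CPM became 3.65, 2.97 and 3.07 CPM at 2 h and 2.96, 2.58 and 2.82 CPM at 6 h, all overlapping (log2 0.09 ± 0.20 and -0.12 ± 0.20, adjusted p = 0.735 and 0.625). The response of PEO4 minus that of PEO1 BRCA+ was -2.76 ± 0.30 at 2 h (adjusted p = 7.87e-08) and -2.46 ± 0.30 at 6 h (adjusted p = 3.44e-07).

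HES4 was not called in either line: from 8.96, 10.6 and 10.8 CPM it went to 9.85, 8.12 and 7.22 CPM at 2 h and 9.25, 8.34 and 5.78 CPM at 6 h in PEO1 BRCA+ (adjusted p = 0.174 and 0.0634). In PEO4 it went from 29.0, 27.2 and 26.5 CPM to 20.5, 27.5 and 27.4 CPM and then to 20.4, 22.3 and 24.8 CPM (adjusted p = 0.422 and 0.0686). HES1 and HES4, which share GTGGGAA in the windows shown above, thus gave different outcomes of the test, and the difference between them was not tested.

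HEY1, a HES-related repressor gene, had 4, 2 and 5 counts in untreated PEO1 BRCA+, 18, 13 and 6 counts at 2 h and 15, 21 and 22 counts at 6 h. The 6 h libraries did not overlap the untreated ones (log2 1.76 ± 0.51, adjusted p = 0.00559), and the 2 h libraries did not overlap them in counts but did in CPM (log2 1.12 ± 0.55, adjusted p = 0.0922). The ratio of summed counts per library size at 6 h was 3.44 with an exact 95% interval of 1.79 to 7.27 that covers counting error only. In PEO4 HEY1 had 3 to 4 counts untreated and 3 to 11 after PDS, and no call.

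JAG1 rose in PEO4, where it had been lowest. From 1.04, 1.31 and 1.38 CPM it reached 5.25, 4.98 and 4.66 CPM at 2 h and 4.08, 3.05 and 3.74 CPM at 6 h, with no overlap of either with the untreated libraries. This was a 3.996-fold rise at 2 h (log2 2.00 ± 0.16, adjusted p = 9.63e-11) and a 2.94-fold rise at 6 h (1.56 ± 0.17, adjusted p = 1.16e-08). In PEO1 BRCA+ it read 30.3, 30.8 and 30.97 CPM at 2 h and 32.7, 30.8 and 35.6 CPM at 6 h against 23.8, 21.5 and 27.6 CPM untreated, also without overlap. Those log2 fold changes were 0.34 ± 0.09 (adjusted p = 0.00262) and 0.44 ± 0.09 (adjusted p = 0.000173), within the fold threshold. The response of PEO4 exceeded that of PEO1 BRCA+ by 1.66 ± 0.19 at 2 h (adjusted p = 1.86e-07) and by 1.11 ± 0.19 at 6 h (adjusted p = 4.84e-05), the latter 0.99 and short of the fold threshold without untreated PEO4 replicate 1. Even after PDS, JAG1 in PEO4 stayed below every PEO1 BRCA+ library.

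JAG2 was not called in either line. In PEO1 BRCA+ it read 184, 171 and 167 CPM at 2 h and 179, 173 and 165 CPM at 6 h, all below the untreated 202 to 218 CPM (adjusted p = 0.121 and 0.103). In PEO4 it read 83.3, 68.8 and 88.4 CPM at 2 h, where the log2 fold change was -0.54 ± 0.14 (adjusted p = 0.00452), and 132, 129 and 132 CPM at 6 h, inside the untreated range of 83.4 to 145 CPM.

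Of the receptors, NOTCH1 fell in PEO4 from 32.8, 32.7 and 55.2 CPM to 10.4, 12.5 and 11.9 CPM at 2 h and 16.8, 18.6 and 17.9 CPM at 6 h. It was 3.47-fold lower at 2 h (log2 -1.79 ± 0.17, adjusted p = 3.33e-07) and 2.27-fold lower at 6 h (-1.18 ± 0.17, adjusted p = 1.53e-05), without overlap. Without untreated replicate 3, the 6 h value was -0.88 and within the fold threshold. In PEO1 BRCA+ NOTCH1 read 44.3, 41.4 and 43.5 CPM at 2 h and 46.9, 42.4 and 49.8 CPM at 6 h, below the untreated 60.4, 72.8 and 73.1 CPM (log2 -0.68 ± 0.15 and -0.57 ± 0.15, adjusted p = 0.00205 and 0.00632). The 2 h response was stronger in PEO4 by -1.12 ± 0.23 (adjusted p = 0.00155), a difference that was -0.82 without untreated PEO4 replicate 3.

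NOTCH3 fell in both lines, in PEO1 BRCA+ at 2 h and 6 h and in PEO4 at 6 h. In PEO1 BRCA+ it went from 125, 154 and 135 CPM to 70.4, 63.97 and 68.9 CPM at 2 h and 55.3, 51.0 and 51.8 CPM at 6 h. The log2 fold changes were -1.03 ± 0.15 (adjusted p = 3.85e-05) and -1.39 ± 0.15 (adjusted p = 2.19e-06). The 2 h call was at the threshold: the value was -0.93 without untreated replicate 2 and -0.98 without the 2 h replicate 2. In PEO4 it went from 108, 79.3 and 142 CPM to 73.5, 79.4 and 72.8 CPM at 2 h, overlapping, and then to 28.7, 28.4 and 28.5 CPM at 6 h, below all others. The log2 fold changes were -0.55 ± 0.15 at 2 h (adjusted p = 0.00442) and -1.94 ± 0.15 at 6 h (adjusted p = 3.36e-08). The responses of the lines differed by 0.48 ± 0.21 at 2 h (adjusted p = 0.0813) and -0.55 ± 0.21 at 6 h (adjusted p = 0.0432), neither beyond the fold threshold.

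NOTCH2, the most abundant receptor, was not called, and its values went opposite ways in the lines. In PEO1 BRCA+ it read 259, 257 and 304 CPM at 2 h and 265, 249.5 and 309 CPM at 6 h, below the untreated 339 to 381 CPM (log2 -0.42 ± 0.08 and -0.41 ± 0.08, adjusted p = 0.000105 and 0.000119). In PEO4 it read 208, 224 and 225 CPM at 2 h, overlapping the untreated 184 to 222 CPM (log2 0.10 ± 0.08, adjusted p = 0.259), and 279, 268 and 276 CPM at 6 h (log2 0.43 ± 0.08, adjusted p = 4.50e-05). The difference between the responses was 0.52 ± 0.11 at 2 h (adjusted p = 0.000733) and 0.84 ± 0.11 at 6 h (adjusted p = 1.94e-06). The uncertainty of NOTCH2 counts from its copies applies to both lines.

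**Figure D3:**
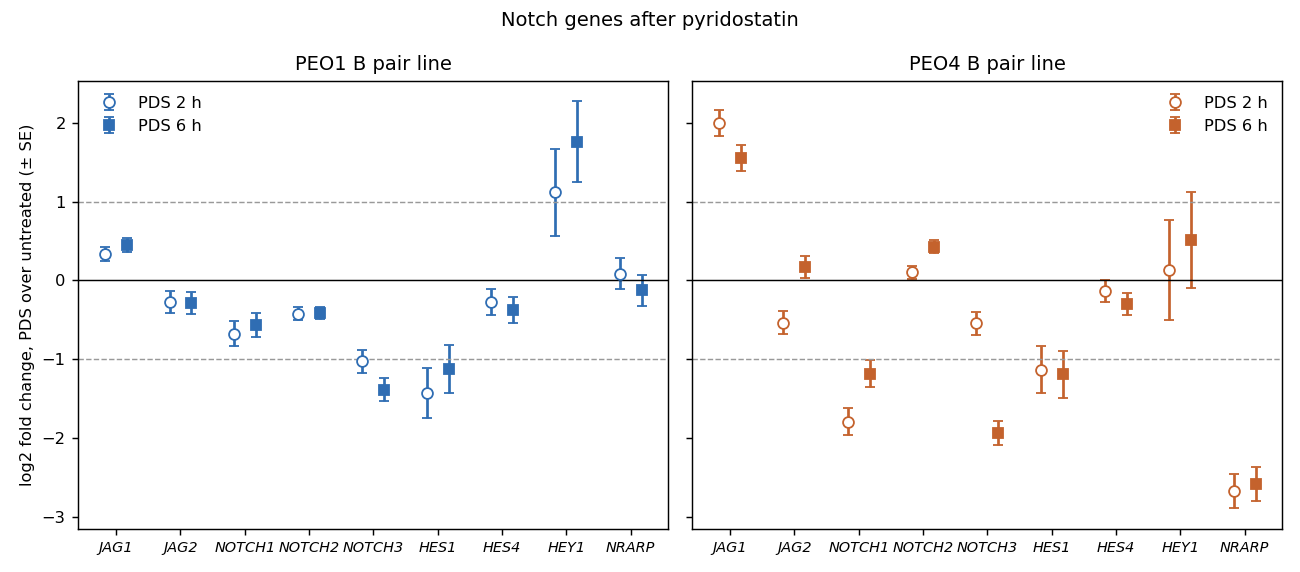
Log2 fold change after PDS over untreated (points, with SE bars) for each Notch gene in PEO1 BRCA+ (left, blue) and PEO4 (right, orange); open circles are 2 h, filled squares 6 h, and dashed lines mark a log2 fold change of 1 in either direction. NRARP lies at -2.68 and -2.59 in PEO4 and near 0 in PEO1 BRCA+, JAG1 is above 1 in PEO4 alone, and HES1 is below -1 in both lines at both times.

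Between 2 h and 6 h of PDS, edgeR called 0 of 9 Notch genes in PEO1 BRCA+, against 0.170% of all genes, and DESeq2 also called 0. At an unadjusted p under 0.05, 1 gene passed, NOTCH3, whose adjusted p was 0.18. The share of all genes at an unadjusted p was not counted. In PEO4 1 of 9 was called, NOTCH3, against 12.0% of all genes (log2 -1.40 ± 0.15, adjusted p = 1.94e-06). NOTCH1, NOTCH2 and JAG2 stood higher at 6 h than at 2 h by 0.61 ± 0.17, 0.33 ± 0.08 and 0.71 ± 0.14 on the log2 scale, and JAG1 stood lower by a log2 fold change of -0.44 ± 0.12, all with an adjusted p under 0.05 and all within the fold threshold. By the adjusted p alone, 10237 of all 17020 tested genes passed in this comparison. In these 4 genes the 2 h and 6 h libraries did not overlap, and the share of all genes without overlap was not counted.

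For the difference of the response between the lines, 3 of 9 Notch genes were called at 2 h, NOTCH1, JAG1 and NRARP, against 11.0% of all genes, and 2 of 9 at 6 h, JAG1 and NRARP, against 14.8%. NRARP gave the widest difference at both times.

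In the B pair the level of fibroblast markers also differed between conditions. The summed CPM of 6 fibroblast markers was 36.3 to 38.2 in untreated PEO4, 9.12 to 12.99 at 2 h and 3.74 to 4.94 at 6 h, and 5.01 to 6.86 falling to 3.13 to 3.46 and 2.73 to 3.66 in PEO1 BRCA+. In PEO4 the summed markers fell after PDS, as did NOTCH1, NOTCH3, HES1 and NRARP. From 2 h to 6 h the markers and NOTCH3 fell further, while NOTCH1 rose by a log2 fold change of 0.61 ± 0.17. Over that step HES1 and NRARP gave -0.06 ± 0.30 and 0.09 ± 0.27. The part of these markers in the PDS results was not tested. The A pair went the other way between the lines, with sums of 29.9 to 33.2 CPM in PEO1 and 8.35 to 13.5 CPM in PEO4, and the part of these markers in the line comparisons was not tested either. In untreated PEO4 of the B pair COL1A1 read 13.7 to 28.3 CPM, COL1A2 1.80 to 17.3 CPM and COL3A1 6.23 to 7.56 CPM. LUM, DCN and PDGFRA had at most 8 counts in any library of the B pair. The summed endothelial markers read 1.61 to 2.76 CPM in untreated PEO4, 0.552 to 1.02 at 2 h and 0.183 to 0.210 at 6 h. In PEO1 BRCA+ they read 0.575 to 1.16, 0.756 to 1.19 and 0.851 to 1.03 CPM. Their part in the results was not tested.

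The genes most like HES1 across the 18 libraries of the B pair, among 10263 well expressed genes, were TPBG (Pearson r = 0.930), EGR1 (0.924), an immediate early transcription factor gene, and IER2 (0.921), an immediate early gene. For JAG1 they were MYO1E (r = 0.988), AKAP12 (0.988) and AFAP1L2 (0.987). The libraries share lines, treatment and depth, so these values only describe which levels ran alongside.

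A wider list of 75 other Notch pathway genes, ordered by role and chosen with results of these data known, put the 10 genes in context. In the A pair 67 of the 75 passed the filter, with 10 higher and 11 lower in PEO4, and in the untreated B pair 66 passed, with 11 higher and 9 lower. After PDS in PEO1 BRCA+, 1 was higher and 4 lower at 2 h, and 1 higher and 5 lower at 6 h. In PEO4, 5 were higher and 6 lower at 2 h, and 4 higher and 12 lower at 6 h. Of all tested genes, 25.8% were called in the A pair, 24.8% in the untreated B pair, 7.57% and 8.13% in PEO1 BRCA+ and 17.4% and 22.6% in PEO4. After PDS the list was thus called at close to the share of all genes, and in the untreated pairs somewhat above it, which was not tested. The genes named below are single genes from a list called at such shares.

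Of the target genes, HES2 was higher in PEO4 in both pairs (log2 3.05 ± 0.44 and 2.64 ± 0.74, adjusted p = 6.56e-05 and 0.00271). In the B pair HES2 held 1 to 3 counts per library in untreated PEO1 BRCA+ and 4 to 16 in untreated PEO4. It held 0 to 2 in PEO4 at 6 h of PDS, so its B pair values rest on few counts. HEYL was higher in PEO4 of the A pair, at 4.60 ± 0.404 CPM against 0.513 ± 0.312 CPM (SD, n = 3; log2 3.12 ± 0.34 SE, adjusted p = 6.04e-06). In the A pair HEY2 was also called higher in PEO4, which held 38 to 109 counts per library, against 0 to 2 in PEO1. HEY2 had at most 8 counts in any B pair library. GATA3 and SOX9 were lower in PEO4 of the A pair (log2 -2.21 ± 0.10 and -3.03 ± 0.44), and BCL6 and CDKN1A, the cell cycle inhibitor p21, were higher in PEO4 in both pairs (CDKN1A 1.35 ± 0.16 and 1.53 ± 0.14). After PDS, CDKN1A rose in PEO1 BRCA+ (8.88 ± 0.803 CPM to 18.2 ± 1.25 and 18.7 ± 3.85 CPM; log2 1.04 ± 0.14 and 1.08 ± 0.14) and HEYL fell (1.36 ± 0.576 CPM to 0.688 ± 0.218 and 0.420 ± 0.157 CPM). In PEO4, MYC rose at 2 h (142 ± 9.41 to 286 ± 4.33 CPM; log2 1.02 ± 0.05) and BCL6, GATA3, HES2 and HES6 fell at 6 h. SOX9 rose in PEO4 at both times (log2 2.25 ± 0.39 and 2.37 ± 0.39), from untreated libraries that ranged from 10.7 to 61.8 CPM.

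Among the components of the nuclear complex and its co-repressors, RBPJ itself was called in none of the comparisons with untreated cells, at 202 ± 14.0 CPM in untreated PEO4, 126 ± 7.02 at 2 h and 154 ± 3.03 at 6 h. TLE1, TLE4 and the co-activator MAML2 were lower in PEO4 in both pairs, with log2 values of -1.69 ± 0.09 and -1.47 ± 0.06 for TLE1. In PEO4 the Groucho family co-repressor TLE2 fell from 25.8 ± 10.2 CPM to 4.11 ± 0.896 at 2 h and 1.37 ± 0.136 at 6 h (log2 -2.66 ± 0.24 and -4.24 ± 0.28, adjusted p = 1.25e-07 and 2.34e-09), and MAML2 fell at 6 h from 10.8 ± 2.94 to 2.36 ± 0.261 CPM. TLE1 went the other way in PEO4, from 45.1 ± 2.96 CPM untreated to 60.9 ± 0.265 at 2 h and 94.4 ± 0.808 at 6 h. No gene of this group was called in PEO1 BRCA+ after PDS at either time, while TLE2 differed in response between the lines by -1.86 ± 0.34 at 2 h and -3.45 ± 0.37 at 6 h.

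Of the genes that act on ligands, NEURL1B, an E3 ligase for ligand endocytosis, fell in PEO4 from 28.2 ± 7.80 CPM to 7.29 ± 1.48 at 2 h and 2.86 ± 0.208 at 6 h (log2 -1.96 ± 0.15 and -3.31 ± 0.17). In PEO1 BRCA+ it was called at 6 h alone (log2 -1.06 ± 0.16), and the responses differed by -1.34 ± 0.22 and -2.25 ± 0.23. MFAP5, a microfibril protein listed with the non-canonical ligands, fell in both lines at both times, in PEO4 from 6.85 ± 3.34 CPM to 0.275 ± 0.136 and 1.06 ± 0.480 CPM and in PEO1 BRCA+ from 9 to 17 counts per library to 1 to 5. Between the untreated lines MFAP5 was called in opposite directions, lower in PEO4 of the A pair (log2 -3.49 ± 0.38, adjusted p = 6.84e-06) and higher in PEO4 of the B pair (3.43 ± 0.43, adjusted p = 8.55e-07), and the difference between the pairs was not tested. DNER, another such ligand, was lower in PEO4 in both pairs and fell in PEO4 at 2 h (log2 -2.24 ± 0.21).

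Of the genes for receptor processing, the Fringe glycosyltransferase gene MFNG and the glycosyltransferase gene EOGT were lower in PEO4 in both pairs. LFNG was lower in PEO4 of the A pair (log2 -1.61 ± 0.17), and in the untreated B pair its difference was of the other sign and within the fold threshold (0.68 ± 0.09, adjusted p = 4.66e-07). The protease gene ADAM17 was higher (1.11 ± 0.05, adjusted p = 2.05e-15) and APH1B, a gamma-secretase subunit, lower (-1.27 ± 0.17, adjusted p = 2.92e-07) in PEO4 of the untreated B pair. After PDS in PEO4, MFNG rose at both times (log2 2.41 ± 0.24 and 1.86 ± 0.25) and EOGT at 6 h (1.19 ± 0.09). APH1B fell in PEO1 BRCA+ (log2 -1.08 ± 0.15 and -1.44 ± 0.16) and rose in PEO4 at 2 h (1.19 ± 0.16), and these responses differed by 2.27 ± 0.22 at 2 h (adjusted p = 2.17e-08). Of the Deltex ligase genes, which act on receptor turnover, DTX1, DTX3L and DTX4 were higher and NUMBL lower in PEO4 in both pairs. DTX3L fell in PEO4 at both times, from 126 ± 22.9 CPM to 58.8 ± 3.32 and 42.7 ± 1.58 CPM, and DTX4 fell in PEO1 BRCA+ at both times, from 38.0 ± 3.23 CPM to 17.9 ± 0.703 and 16.9 ± 1.11 CPM.

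**Figure D4:**
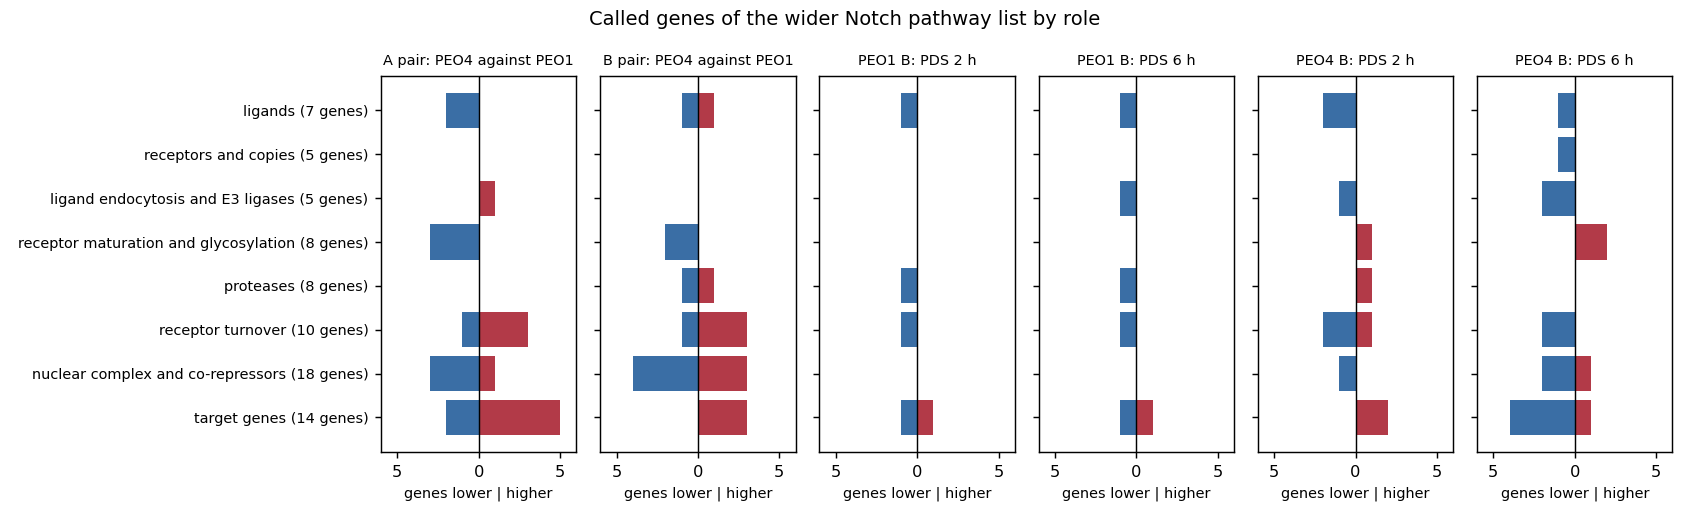
Number of called genes of the wider Notch pathway list (horizontal axis, lower to the left in blue, higher to the right in red) by role (rows, with the number of listed genes in brackets), in 6 comparisons. The counts in the first and second panels sum to 10 higher and 11 lower and to 11 higher and 9 lower, and in the PEO4 panel at 6 h of PDS to 4 higher and 12 lower.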

How the data were processed

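Poly(A)-enriched RNA was sequenced as 150 bp paired-end reads. Per the labels, FastQC, fastp, STAR and featureCounts were used with hg38, without versions; the annotation and strand setting are not given in the sources used here. The deposited values are raw counts per gene, 1 table for each pair. Here, edgeR 4.0.16 in R 4.3.3 was fitted per table (filterByExpr, TMM factors, robust quasi-likelihood test, 1 mean per group, Benjamini-Hochberg over 15882 and 17020 genes), with a call at an adjusted p under 0.05 and a log2 fold change beyond 1. CPM are counts relative to TMM-scaled library totals. Scripts were tested on simulated data. DESeq2 1.42.0, other scalings, filters and left-out libraries were alternatives. No 2 replicates agreed within sampling noise. Lines without readable counts (2 and 1) were dropped.

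The Notch genes and lists were chosen with earlier results of these data known. The text names these genes, called genes of the pathway list, BRCA2, cell type markers and the 3 genes most correlated with HES1 and with JAG1 (mean log2 CPM of at least 3, prior count 4). The genes named around DLL1 were chosen after their values were seen.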

Additional observations from a re-analysis of the deposited data

Results flagged for a closer look

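The response to PDS differed between PEO4 and PEO1 BRCA+ by the test of the difference itself (edgeR quasi-likelihood test, adjusted over all genes tested) for the following Notch genes, as the log2 response of PEO4 minus that of PEO1 BRCA+. At 2 h the difference was -1.12 for NOTCH1 (adjusted p = 0.00155), 0.52 for NOTCH2 (adjusted p = 0.000733), 1.66 for JAG1 (adjusted p = 1.86e-07) and -2.76 for NRARP (adjusted p = 7.87e-08). At 6 h it was -0.61 for NOTCH1 (adjusted p = 0.0376), 0.84 for NOTCH2 (adjusted p = 1.94e-06), -0.55 for NOTCH3 (adjusted p = 0.0432), 1.11 for JAG1 (adjusted p = 4.84e-05) and -2.46 for NRARP (adjusted p = 3.44e-07). Of all 17020 tested genes, 6351 passed by the adjusted p of this difference alone at 2 h and 8070 at 6 h. On leaving out a library, the 6 h difference ran from -0.75 to -0.31 for NOTCH1 and from -0.74 to -0.32 for NOTCH3. All these values use the untreated libraries of both lines at both times.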

How the results depend on the processing

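Of 1015 values of single Notch genes under the alternatives, 984 kept their direction and their side of the threshold, 10 dropped below it and 3 rose past it, all on leaving out a library, and 18 changed sign, all from small values. With the adjusted p alone, the calls among the 9 Notch genes tested were 6 in the untreated B pair, where 11672 of all 17020 tested genes passed. They were 5 and 6 in PEO1 BRCA+ at 2 h and 6 h of PDS, against 8947 and 9024 of all genes. Between 2 h and 6 h in PEO4 they were 5, against 10237, and for the response difference at 6 h 5, against 8070. Leaving out a library gave 2 to 4 calls in the untreated B pair (4 without untreated PEO4 replicate 3), 1 to 3 in PEO1 BRCA+ at 2 h (1 without untreated replicate 2 or 2 h replicate 2) and 1 to 2 for the response difference at 6 h (1 without untreated PEO4 replicate 1). The same steps gave ranges on the log2 scale that crossed 0 for HES1 in the A pair (-0.071 to 0.18), for HEY1 in the untreated B pair (-0.41 to 0.20), for NRARP in PEO1 BRCA+ at 2 h (-0.012 to 0.27), for NRARP in PEO1 BRCA+ at 6 h (-0.22 to 0.056), for HES1 in the response difference at 6 h (-0.38 to 0.16), for JAG2 in PEO4 at 6 h (-0.011 to 0.37), for HES1 in the response difference at 2 h (-0.013 to 0.52) and for HEY1 in PEO4 at 2 h (-0.11 to 0.53). With library totals, NRARP in PEO1 BRCA+ at 2 h was -0.063 and NOTCH2 in PEO4 at 2 h was -0.027. The replicate numbers did not pair libraries (0 of 3 pairs in the A pair and 1 of 45 in the B pair correlated above 0.1, and 2 of 6 and 6 of 18 libraries correlated best with their own number). A replicate block moved no count of called Notch genes, and turned the HES1 response difference at 6 h to 0.021. HEY1 could not be fitted with the filter of at least 1 CPM in 3 libraries. Over all genes, calls between 2 h and 6 h in PEO1 BRCA+ were 29, with 16 by DESeq2 and 17 under that filter, and the adjusted p alone gave 1182; in the other comparisons it gave 2.39 to 6.95 times the calls, from 4095 to 9787 in the A pair and from 1288 to 8947 in PEO1 BRCA+ at 2 h. The cause of these changes was not tested. Values of HEY1 and NRARP are limited by depth.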
